A study of Mus musculus with 8 samples.

Results

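The 8 genes described here encode proteins by which the liver signals to other organs, together with a receptor pair that reads such signals. Fgf21, Gdf15, Angptl4, Fetub, Ahsg and Lect2 encode secreted proteins, often called hepatokines, and Klb and Fgfr4 encode the co-receptor and the receptor for hormones of the FGF19 family on hepatocytes. They were taken by symbol, with earlier results of these data known. All 8 were among the 16133 genes of the authors' deposited expression table, and 6 had a peak in at least 1 of the authors' lists of RNA regions enriched for N6-methyladenosine (m6A), the most common internal mark of mRNA.

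Livers of METTL14f/f mice, called WT here, were compared with livers of METTL14Alb mice, called KO. METTL14 binds METTL3, the enzyme that writes m6A, and holds its RNA substrate. Mice of both genotypes had received tunicamycin at 2 mg/kg by intraperitoneal injection and were examined after 24 hours, and livers without tunicamycin were not analysed here. Polyadenylated RNA was sequenced before (input) and after (IP) precipitation with an m6A antibody, with 2 libraries for each genotype and RNA fraction, which makes 4 groups. The sources used here do not give the Cre driver behind the name METTL14Alb, the age of the mice or whether a group's libraries came from separate mice, so a p-value here covers the spread among the libraries and no more.

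Tunicamycin blocks N-linked glycosylation, and unfolded proteins then gather in the endoplasmic reticulum (ER). The ER stress response raises translation of the transcription factor ATF4, which with CHOP (gene Ddit3) can switch on Fgf21 and Gdf15, while fasting switches on Fgf21 and Angptl4 through the fatty acid receptor PPARA. FGF21 acts on fat tissue and brain through FGFR1 and the co-receptor KLB. In the liver KLB works mainly with FGFR4, through which the gut hormone FGF15 holds down bile acid synthesis. GDF15 acts on a brainstem receptor and lowers food intake, and ANGPTL4 inhibits lipoprotein lipase. AHSG (fetuin-A) and FETUB (fetuin-B) are plasma proteins of the cystatin superfamily, and LECT2 is a hepatokine known for attracting neutrophils.

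The promoters of Fgf21 and Gdf15 are shown because both are known targets of ER stress and yet their mRNA levels moved in opposite directions in these livers. Each sequence holds the 250 bases before a RefSeq start (GRCm38.p6, the mm10 assembly), 5′ to 3′ on the gene's strand. For Gdf15 this start differs from the gene start at 70632470, from which peak distances are counted. The last bases of its window therefore lie within the gene. Capitals mark the core of the element bound by ATF4 and CHOP, TGATGNAA, searched on both strands.

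Fgf21, chr7:45615491-45615740, minus strand: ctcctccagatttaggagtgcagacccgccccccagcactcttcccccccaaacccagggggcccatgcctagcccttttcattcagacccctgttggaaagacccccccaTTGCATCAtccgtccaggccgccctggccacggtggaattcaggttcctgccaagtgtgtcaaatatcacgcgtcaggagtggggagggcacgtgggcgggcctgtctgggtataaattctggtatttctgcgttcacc
Gdf15, chr8:70632457-70632706, minus strand: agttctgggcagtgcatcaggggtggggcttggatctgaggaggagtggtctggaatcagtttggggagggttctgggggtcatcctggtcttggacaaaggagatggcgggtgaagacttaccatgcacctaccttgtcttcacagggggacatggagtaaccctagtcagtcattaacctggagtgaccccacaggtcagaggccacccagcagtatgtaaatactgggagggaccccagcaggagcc

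The core was in the Fgf21 window once, on the strand opposite to the gene, with its first base 139 bases before the start. It was in none of the other promoter windows of these genes, a second RefSeq start of Gdf15 included. The table of RefSeq promoters used here held 9 sequences for 7 of the 8 genes, all but Angptl4. Over all 32851 promoter windows of that length, 1134 (3.45%) held the core. A PPAR response element, as a direct repeat with 1 base between and no mismatch, was in 11 windows (0.0335%) and in none of those of these genes. A match describes the letters only, and no match says only that these letters are not in this window.

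The expression values are those of the 4 input libraries. Whole reads per library were recovered from the authors' deposited means for 16045 of 16133 genes. Totals were 12341286 to 16919791 reads per library. In these totals the other genes, the abundant Ahsg among them, were entered as the deposited genotype mean times the authors' size factor. Results at equal total counts thus rest in part on the authors' own fold changes and size factors. The letters A and B tell apart the libraries of a genotype, and a normalized count is a library's reads divided by the authors' size factor. Counts were not set against gene length, so levels are compared between libraries and not between genes. Of genes whose mean count reached 100, 156 of the 347 with a log2 value above 2 had peaks in KO alone and 0 in WT alone, against 30 and 46 of the 403 below -2 (Fisher's exact test on the genes with peaks in 1 list, two-sided, p = 1.31e-28). The fold change was therefore read as KO over WT. Mettl14 itself, the targeted gene, stood at normalized counts of 79.8 and 99.7 (WT A, WT B) and 64.6 and 62.0 (KO A, KO B). Its log2 change in the authors' deposited table was -0.50 ± 0.41 (SE) with a DESeq2 adjusted p of 0.342, and it was 0.32 once totals were made equal.

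The scaling matters for the size of every change given here and, for some genes, for its direction. Authors' size factors were 1.255 and 1.177 for KO, 0.927 and 0.743 for WT, although the KO libraries held fewer reads. Scaling to equal total counts instead moves each log2 change up by about 0.82 and moves the median of all genes in limma from 0.06 to 0.87. Changes are therefore also placed within all 14257 tested genes, a rank that a common shift leaves as it is. The authors' deposited table calls 42.5% of tested genes changed at an adjusted p under 0.05, with 22.2% lower and 20.4% higher in KO.

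Most hepatocyte markers fell and most markers of bile duct and mesenchymal cells rose in KO, by the authors' DESeq2 test. Of 10 hepatocyte markers 8 were lower, 1 (Apoa1) was higher and Apob (-0.37) was not called, with a median log2 change of -1.68. The 3 with library values, Serpina1a, Cyp2e1 and Hnf4a, summed to normalized counts of 172033 and 152546 in WT, against 20446 and 25408 in KO. Serpina1a (log2 change -3.32) and Cyp2e1 (-2.82) made up most of these sums, which therefore fell more steeply than the list as a whole. Of 10 markers of cholangiocytes and progenitors 9 were higher, with sums of 5030 and 3800 against 719 and 886, and Krt7 and Cldn4 were each at 0 reads in 1 WT library. Of 10 stellate and fibroblast markers 6 were higher, with sums of 10310 and 7375 against 4223 and 3301. Dcn (log2 change -0.03), Lrat (0.40), Des (0.45) and Lum (0.60) were not called. Of 10 endothelial markers 0 were higher and 1 lower, with sums of 4008 and 3426 against 4106 and 3259. Of 10 macrophage markers 1 (Cd68) was higher and 2 (Clec4f and Vsig4) were lower, with sums of 7202 and 6302 against 6503 and 5904. Divided by total reads, the endothelial and macrophage sums were higher in both KO libraries than in either WT library. For the 3 hepatocyte markers with library values, and for cholangiocyte and stellate markers, the direction was the same when sums were divided by total reads. The other hepatocyte markers had no library values. The fall of Apob was smaller than the shift of about 0.82 between scalings, and that of Tat (-0.84) was about as large as this shift. Markers of lymphocytes and neutrophils summed to at most 403 in any library. The part of these cell type markers in the changes below was not tested. In such bulk RNA, fewer hepatocytes and less RNA of a gene per hepatocyte cannot be told apart.

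Of the 8 genes, 6 were lower (all tested genes, 22.2%) and 1 higher (all tested genes, 20.4%) in KO in the authors' deposited table. Fgfr4 did not pass the test. The median of the 8 log2 changes was -0.80, beside 0.05 over all tested genes. Fetub and Fgf21 had the largest decreases, with 1.09% and 1.47% of tested genes at a lower log2 change, and Gdf15, the only member called higher, was at 82.2%. The share was 12.5% for Angptl4, 19.1% for Lect2, 20.7% for Ahsg, 20.8% for Klb and 24.3% for Fgfr4. The KO and WT libraries did not overlap for any of the 7 genes with library values, where 79.1% of genes whose mean count reached 10 also do not overlap. With limma at the authors' size factors, 6 of these 7 genes were called, against 49.6% of all genes. With limma at equal total counts 1 was called higher (all genes, 58.3%) and 2 were called lower (all genes, 7.91%), so that Fgf21, Fetub and Gdf15 kept their calls and Klb, Angptl4 and Lect2 lost theirs. Without KO A or without KO B limma called 0 of 14169 genes, with 5125 and 5487 genes at an unadjusted p under 0.05, and without WT A or WT B it called 6 of the 7 genes again. The authors' DESeq2 test called 6066 genes with all 4 libraries.

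**Figure D1:**
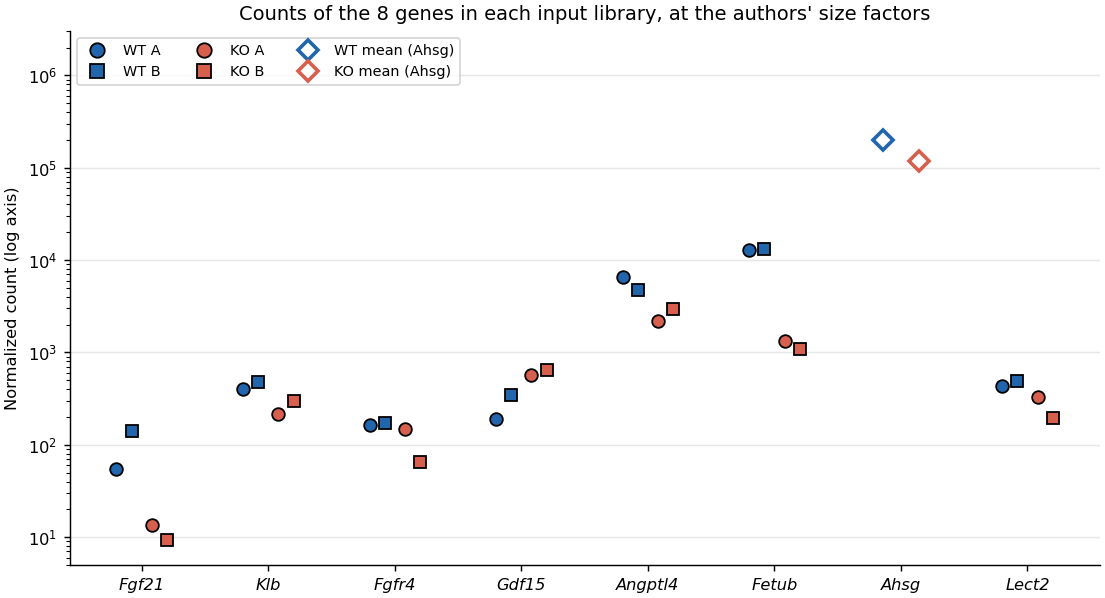
Normalized counts (log axis) of the 8 genes in the 4 input libraries, with circles for library A and squares for library B, blue for WT and red for KO. Open diamonds give genotype means for Ahsg, which had no library values. Gdf15 is the gene whose KO points lie above its WT points, and the KO points of Fetub and Fgf21 lie farthest below theirs.

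**Figure D2:**
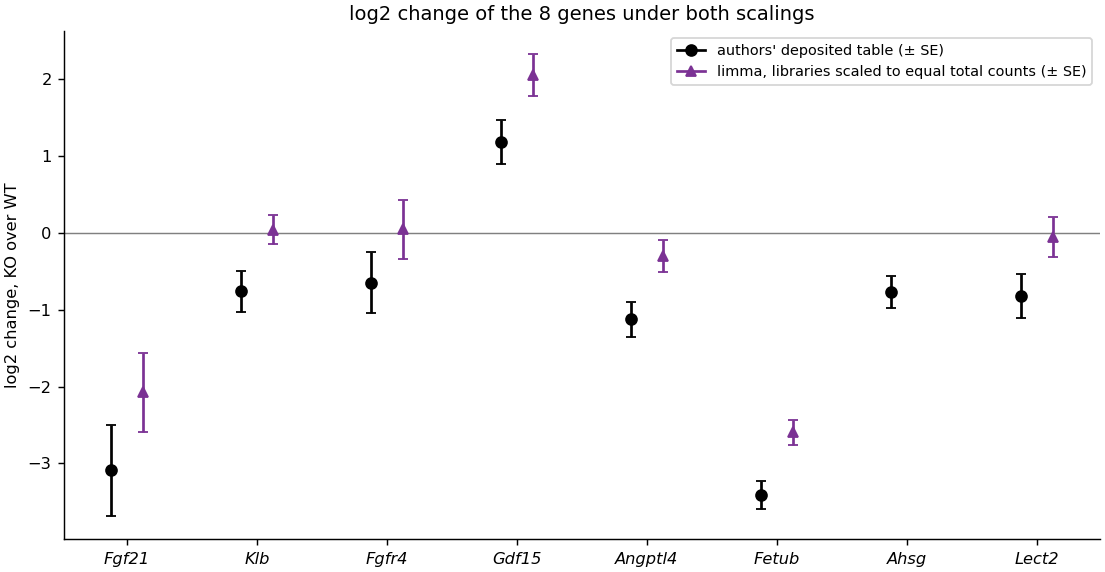
log2 change (KO over WT) of each of the 8 genes in the authors' deposited table (black circles) and in limma at equal totals of counts (purple triangles), bars ± SE. Fgf21, Gdf15 and Fetub lie away from 0 under both scalings, while Klb, Fgfr4 and Lect2 lie within their SE of 0 at equal totals, and Ahsg has no limma value.

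Fgf21, the stress and fasting hormone (chromosome 7, 45613890 to 45615490), was among the genes with the largest decreases. Its WT libraries held normalized counts of 55.0 (WT A) and 141 (WT B), against 13.5 (KO A) and 9.35 (KO B). These rest on 17 and 11 reads in KO and on 51 and 105 reads in WT. Both KO libraries lay below both WT libraries, and WT B was 2.57 times as high as WT A. Fgf21 fell 8.52-fold in the authors' deposited table, a log2 change of -3.09 ± 0.59 (SE) with a DESeq2 adjusted p of 1.41e-06. With equal totals the log2 change was -2.08 in limma (adjusted p = 0.00921). Without WT B it was -2.19 and without WT A -3.54 in limma at the authors' size factors, so the size of the decrease depends on the WT library. No m6A peak was listed for Fgf21 in either genotype.

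Klb, which encodes β-Klotho, the co-receptor that FGF21 and FGF15 need (chromosome 5, 65348411 to 65386957), was lower at the authors' scaling only. KO A and KO B held normalized Klb counts of 216 and 299, and WT A and WT B held 401 and 473. In the authors' deposited table Klb fell 1.70-fold, with a log2 change of -0.76 ± 0.26 (SE) and a DESeq2 adjusted p of 0.0118. Under equal totals the limma value was 0.04 (adjusted p = 0.846). At the authors' size factors the limma value was -0.54 without KO A and -1.01 without KO B. It was -0.89 without WT A and -0.66 without WT B.

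Fgfr4, the receptor tyrosine kinase that KLB serves in hepatocytes (chromosome 13, 55152818 to 55168759), did not pass the test. KO A and KO B held normalized counts of 149 and 64.6, and WT A and WT B held 164 and 171. The KO libraries differed 2.31-fold from each other, more than KO A differed from either WT library. The authors' deposited table gives a log2 change of -0.65 ± 0.40 (SE) and a DESeq2 adjusted p of 0.187. The limma value was -0.17 without KO B and -1.36 without KO A, and 0.05 at equal total counts (adjusted p = 0.913), so no direction is given for Fgfr4.

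The genes of the other FGF receptors, Fgfr1, Fgfr2 and Fgfr3, were all higher in KO. Of the 18 tested genes of the list of FGF receptors and their signal chain, 5 were higher, 3 lower and 10 not called in the authors' deposited table, with a median log2 change of 0.46 beside 0.05 over all tested genes. Fgfr3, a receptor tyrosine kinase of the same family, had normalized KO counts of 558 and 433 where WT had 118 and 112, a log2 change of 2.11 ± 0.27 (SE) in the authors' deposited table (DESeq2 adjusted p = 2.55e-13). Fgfr1, the receptor that carries the FGF21 signal in fat and brain, rose from 104 and 123 to 434 and 283 (log2 change 1.67 in the authors' deposited table). Fgfr2, named after its value was seen, had a log2 change of 0.62 in the authors' deposited table (DESeq2 adjusted p = 0.0405), and Mapk3, which encodes the kinase ERK1, had 1.20. Map2k2, which encodes the kinase MEK2 above ERK, had a log2 change in the authors' deposited table of -0.81, which was 0.02 at equal total counts. At equal total counts limma called 15 of the 18 higher (all genes, 58.3%) and 0 lower (all genes, 7.91%). The list median was then 1.28 beside 0.87 over all genes. Kl, the gene of α-Klotho, was not analysed here.

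Genes that ERK switches on, many of which feed back on FGF signalling, were nearly all higher in KO. The list held 14 tested genes, of which 12 rose, 0 fell and 2 (Spry2 and Spred2) were not called in the authors' deposited table. Their median log2 change was 1.74, and 2.43 at equal total counts beside 0.87 over all genes. There limma called all 14 higher, as it did 58.3% of all genes. Dusp4, a phosphatase that switches ERK off, held normalized KO counts of 284 and 362 where WT held 18.3 and 18.9, a log2 change of 4.12 ± 0.40 (SE) in the authors' deposited table (DESeq2 adjusted p = 1.06e-23). Il17rd, a membrane antagonist of FGF receptors also called SEF, held 5.39 in either WT library, and 51.8 and 69.7 in KO. Its WT values rest on 5 reads (WT A) and 4 reads (WT B). Myc, a growth-promoting transcription factor, had a log2 change of 2.20 in the authors' deposited table, and that of Egr1, an immediate early gene, was 2.40. Egr1 stood at 237 and 645 in the KO libraries and at 108 and 57.9 in the WT libraries. Many other growth factors act through ERK, and cholangiocyte markers moved the same way as this list, whose part in it was not tested.

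The bile acid list holds genes of bile acid synthesis, its control and bile acid transport. All 7 tested were lower in the authors' deposited table (all tested genes, 22.2%), with a median log2 change of -3.15. The part of FGFR4 and KLB in these changes was not tested. Cyp7b1, an oxysterol hydroxylase of the alternative pathway of bile acid synthesis, fell to normalized counts of 66.1 and 41.6 where WT held 6889 and 8527, a log2 change of -7.16 ± 0.24 (SE) in the authors' deposited table (DESeq2 adjusted p = 4.95e-186). Cyp8b1, the sterol 12α-hydroxylase that leads to cholic acid, stood at 541 and 349 against 31632 and 18328. Cyp7a1, the rate-limiting enzyme of the classical pathway, stood at 39.0 and 66.3 against 851 and 400, and its log2 change in the authors' deposited table was -3.57. Slc10a1, the sodium-dependent bile acid importer NTCP, had a log2 change of -2.04 in the authors' deposited table. With equal totals limma called 5 of the 7 lower (all genes, 7.91%). Nr0b2, the repressor SHP, and the export pump Abcb11 were then not called (limma adjusted p of 0.065 and 0.149). Hepatocyte markers fell together with this list.

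Gdf15, the stress hormone of the TGF-β superfamily (chromosome 8, 70629393 to 70632470), rose. WT A and WT B held normalized counts of 189 and 346, and KO A and KO B held 564 and 648. Every KO library was above every WT library, and the WT libraries differed 1.83-fold from each other. In the authors' deposited table Gdf15 was 2.27-fold higher, a log2 change of 1.19 ± 0.29 (SE) with a DESeq2 adjusted p of 1.94e-04. Under equal totals it was 2.06 in limma (adjusted p = 5.19e-04). The value was 0.80 without WT A and 1.67 without WT B, so its size, too, depended on the WT library.

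Transcription factors known to act on Fgf21 or Gdf15 moved in both directions. Of 17 tested, 4 rose (all tested genes, 20.4%), 11 fell (all tested genes, 22.2%) and 2 were not called in the authors' deposited table. The median log2 change was -0.74. At equal total counts the median was 0.10 beside 0.87 over all genes. There limma called 6 higher (all genes, 58.3%) and 4 lower (all genes, 7.91%). Ppara, the fatty acid receptor that drives Fgf21 in fasting, held normalized KO counts of 505 and 511 where WT held 3352 and 2478, a log2 change of -2.52 ± 0.21 (SE) in the authors' deposited table (DESeq2 adjusted p = 3.00e-31), and -1.68 at equal total counts. Creb3l3, the membrane-bound hepatocyte factor CREBH that works with PPARA on Fgf21, held 3140 and 3945 where WT held 12546 and 9312, with a log2 change of -1.63 in the authors' deposited table and -0.80 at equal total counts. Hnf4a, the hepatocyte nuclear receptor, had a log2 change in the authors' deposited table of -1.44, and Nfe2l2, the oxidative stress factor NRF2, rose by 1.67 in the authors' deposited table.

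The ATF4 arm, whose genes are named here after their values were seen, differed from gene to gene. Atf4 itself stood at 2970 and 2989 in KO, between its WT values of 1750 and 3989, with a log2 change of 0.05 in the authors' deposited table (DESeq2 adjusted p = 0.902). At equal total counts both KO libraries lay above both WT libraries, and limma called Atf4 higher (log2 change 0.99, adjusted p = 0.0333). Ddit3, which encodes CHOP, held 723 and 1919 in its WT libraries and 3258 and 2972 in its KO libraries, a log2 change of 1.24 ± 0.66 (SE) in the authors' deposited table that did not pass its test (DESeq2 adjusted p = 0.117), while limma at the same size factors called it (adjusted p = 0.0213). Atf3, a target and partner of ATF4 and CHOP, was higher, with 1764 and 3293 where WT held 47.4 and 413, a log2 change of 3.46 ± 1.34 (SE) in the authors' deposited table (DESeq2 adjusted p = 0.0254). Under both scalings Atf3 and Gdf15 were higher, and Fgf21 and Ppara lower, while the place of Atf4 depended on the scaling.

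**Figure D3:**
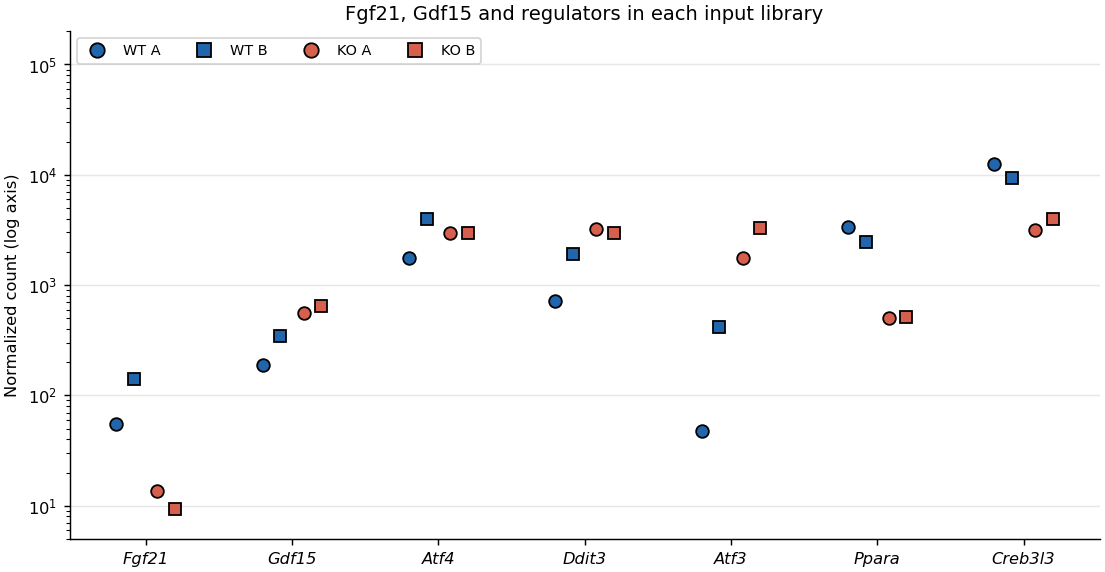
Normalized counts (log axis) of Fgf21, Gdf15 and selected regulators in each input library, with circles for library A and squares for library B, blue for WT and red for KO. At the authors' scaling plotted here Atf4 is the gene whose genotypes overlap, Gdf15, Ddit3 and Atf3 lie higher in KO, and Fgf21, Ppara and Creb3l3 lie lower. In WT, library B lies above library A for Fgf21, Gdf15, Atf4, Ddit3 and Atf3.

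Angptl4, the lipoprotein lipase inhibitor that PPARA induces in fasting (chromosome 17, 33774900 to 33781575), was lower at the authors' scaling. WT A and WT B held normalized counts of 6579 and 4685, and KO A and KO B held 2182 and 2984. The KO libraries lay below the WT libraries without overlap. Angptl4 fell 2.18-fold in the authors' deposited table, a log2 change of -1.12 ± 0.22 (SE) with a DESeq2 adjusted p of 3.81e-06. At equal total counts the value was -0.30 in limma and did not pass (adjusted p = 0.233).

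The PPARA target list, genes of fatty acid use, was mixed. Of 24 tested, 15 fell (all tested genes, 22.2%), 4 rose (all tested genes, 20.4%) and 5 were not called in the authors' deposited table. The median log2 change was -0.87. Of the 23 with library values, limma at equal total counts called 9 higher (all genes, 58.3%) and 9 lower (all genes, 7.91%). Their median was then -0.03 beside 0.87 over all genes. Cyp4a10, a fatty acid ω-hydroxylase, held normalized KO counts of 1440 and 1988 where WT held 22737 and 12247, a log2 change of -3.35 ± 0.26 (SE) in the authors' deposited table (DESeq2 adjusted p = 3.99e-35). Fabp1, the liver fatty acid binding protein, had a log2 change of -2.81 in the authors' deposited table. Acot1, a thioesterase for long-chain acyl-CoA, rose by 2.78 in the authors' deposited table, with 1179 and 1824 where WT held 240 and 195.

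The genes around lipoprotein lipase moved unevenly. Of 13 tested, 6 were lower (all tested genes, 22.2%), 1 higher (all tested genes, 20.4%) and 6 not called in the authors' deposited table. The median log2 change was -0.39. At equal total counts the median was 0.42 beside 0.87 over all genes. There limma called 5 higher (all genes, 58.3%) and 5 lower (all genes, 7.91%). Apoc3, an apolipoprotein that inhibits the lipase, held normalized KO counts of 2460 and 3062 where WT held 13860 and 10802, a log2 change of -2.16 ± 0.20 (SE) in the authors' deposited table (DESeq2 adjusted p = 3.46e-25). Apoa5 and Apoc2, apolipoproteins that favour its action, had log2 changes in the authors' deposited table of -1.77 and -1.29. Lpl, the lipase itself, was the 1 gene that rose, with 1046 and 666 where WT held 193 and 386. Angptl8 was not analysed here.

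Fetub, which encodes fetuin-B, a liver plasma protein that protects the egg coat from early hardening (chromosome 16, 22918382 to 22939768), had the largest change of the 8 genes and the smallest SE. KO A and KO B held normalized counts of 1344 and 1091, and WT A and WT B held 12836 and 13032. The lower WT library was 9.55 times as high as the higher KO library, while the WT libraries differed 1.02-fold. In the authors' deposited table Fetub fell 10.6-fold, a log2 change of -3.41 ± 0.18 (SE) with a DESeq2 adjusted p of 1.33e-73. It was -2.60 at equal total counts in limma (adjusted p = 2.91e-05), and between -3.57 and -3.27 with any 1 library left out at the authors' size factors.

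Ahsg, which encodes fetuin-A, a carrier of calcium phosphate that also binds the insulin receptor (chromosome 16, 22892015 to 22899451), changed less than its neighbour Fetub. Its counts were too high for the reads of single libraries to be recovered, since 14210 sets of whole reads gave the deposited mean. Genotype means derived from the authors' deposited table were 118389 normalized counts in KO and 201481 in WT. Ahsg fell 1.70-fold in the authors' deposited table, a log2 change of -0.77 ± 0.21 (SE) with a DESeq2 adjusted p of 0.00115. Moved by the shift between the scalings the value is 0.05, with no test.

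Ahsg, Fetub, Hrg, Kng2 and Kng1 follow each other on chromosome 16, with gaps of 11304 to 29119 bases between them. Their log2 changes in the authors' deposited table were -0.77 for Ahsg, -3.41 for Fetub, -2.63 for Hrg, -1.58 for Kng2 and -2.09 for Kng1. Hrg encodes histidine-rich glycoprotein and held normalized KO counts of 1120 and 1646 where WT held 7763 and 9412. Kng1 and Kng2 encode kininogens, the precursors of bradykinin, and the genotype means of Kng1 from the authors' deposited table were 8596 and 36562. All 5 neighbours were lower in KO at the authors' scaling, and at equal total counts Fetub, Hrg and Kng2 had limma values of -2.60, -1.83 and -0.76, each called, while Ahsg turned to 0.05 and Kng1 had no library values. The list of other cystatin relatives held 5 tested genes. Of these, 4 fell (all tested genes, 22.2%) and 1 rose (all tested genes, 20.4%) in the authors' deposited table. Of the 4 with library values, limma at equal total counts called 2 lower (all genes, 7.91%) and 1 higher (all genes, 58.3%). Cst3, named after its value was seen, had a log2 change of -0.67 in the authors' deposited table. At equal total counts its limma value was 0.16 and was not called (adjusted p = 0.279). The 1 that rose was Cstb, an inhibitor of lysosomal cathepsins inside cells, by 2.70 in the authors' deposited table (DESeq2 adjusted p = 1.02e-36), with 3212 and 2610 where WT held 409 and 486. Cst6 and Cst7 were in the table without an adjusted p.

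Lect2, the hepatokine LECT2 (chromosome 13, 56529734 to 56548559), was lower at the authors' scaling. WT A and WT B held normalized counts of 438 and 490, and KO A and KO B held 329 and 194. The genotypes did not overlap, but the KO libraries differed 1.70-fold from each other, nearly as much as the genotype means. The authors' deposited table gives a 1.77-fold decrease for Lect2, a log2 change of -0.83 ± 0.29 (SE) with a DESeq2 adjusted p of 0.0115. Without KO B the limma value was -0.49 and without KO A -1.25, and at equal total counts it was -0.05 (adjusted p = 0.864).

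Other hormones and binding proteins of the liver were lower in 12 and higher in 2 of 21 tested cases in the authors' deposited table. Among all tested genes 22.2% were lower and 20.4% higher. The list's median log2 change was -0.72. Over the 18 with library values, which leave out Rbp4, Hamp and Igfbp1, limma called 2 higher and 10 lower at the authors' size factors (median -0.66). At equal total counts it called 6 higher (all genes, 58.3%) and 3 lower (all genes, 7.91%), with a median of 0.16 beside 0.87 over all genes. Fgl1, a fibrinogen-like hepatokine, held normalized KO counts of 995 and 1139 where WT held 14405 and 22186, a log2 change of -4.10 ± 0.22 (SE) in the authors' deposited table (DESeq2 adjusted p = 9.53e-74). Igf1, the main growth factor under growth hormone, stood at 817 and 568 against 3805 and 3338. Rbp4, the retinol carrier, had a log2 change in the authors' deposited table of -2.65, and Hamp, the iron hormone hepcidin, had -1.63. Tsku, a secreted leucine-rich repeat protein named after its value was seen, rose by 1.13 in the authors' deposited table. Selenop was not analysed here.

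**Figure D4:**
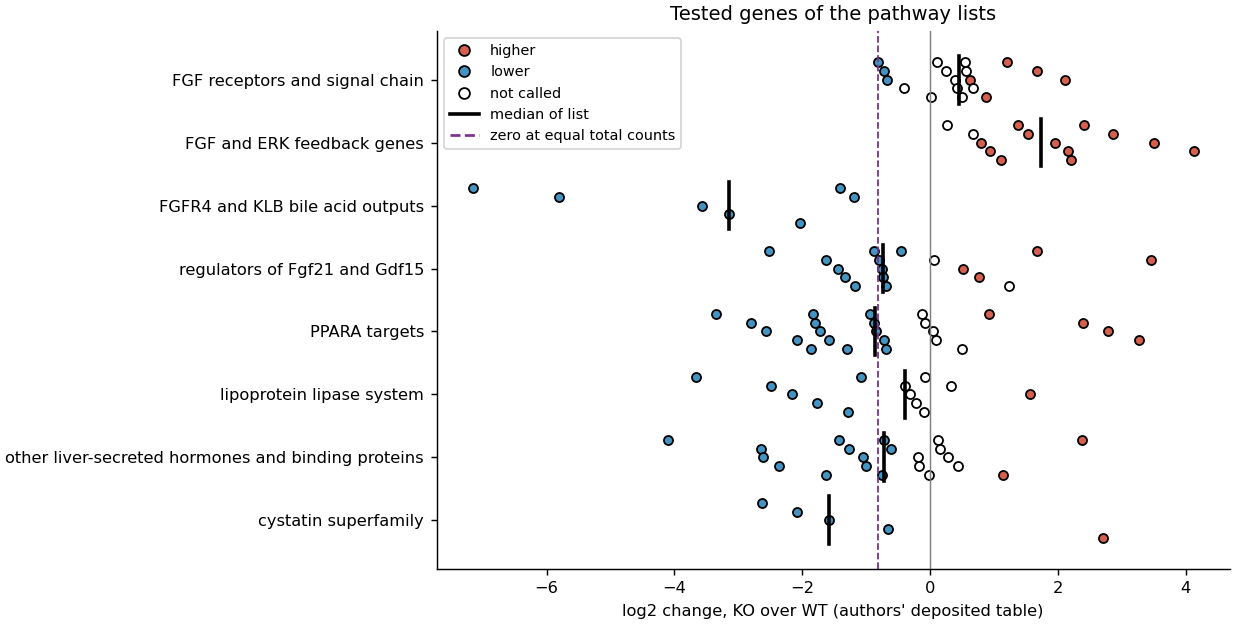
log2 change (KO over WT, authors' deposited table) of each tested gene in the 8 gene lists, red for higher, blue for lower and open for not called, with a black bar at each list's median. The dashed line marks where 0 would lie at equal totals of counts. The feedback list lies to the right of 0 and the bile acid list to the left of both lines.

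The genes whose values over the 4 libraries were most like those of each of the 8 genes were found by the smallest root mean square difference in centred log2 normalized counts. For Fgf21 these were Paqr9 (0.09), BC048546 (0.10) and Leap2 (0.12) among 8863 genes whose mean count reached 100, predicted genes left out. For Fetub they were Nnmt (0.03), Rnase4 (0.06) and Abhd15 (0.07), and for Gdf15 Sptlc2 (0.03), Notch2 (0.04) and Fam208b (0.05). The nearest to Angptl4 were Atp5sl (0.02), Cyp4b1 (0.04) and Cyp4f14 (0.06), and to Klb Dram2 (0.03), Grtp1 (0.03) and Itih1 (0.04). For Lect2 they were Qpct (0.10), Rnf125 (0.12) and Sugct (0.13), and for Fgfr4 Dnase1l3 (0.16), Lect2 (0.17) and Sugct (0.17). Fgfr4 and Lect2 thus shared low values in KO B. With 4 libraries many genes come close by this measure, and it carries no test.

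The m6A lists held 20 peaks of these genes, 11 in WT and 9 in KO, and Fgf21 and Fgfr4 had none. A peak was listed in WT for 4 of the 8 genes and in KO for 5, where 18.5% and 36.3% of all genes in the expression table had a peak. Angptl4, Fetub and Ahsg had peaks in both lists, Klb in WT alone, and Gdf15 and Lect2 in KO alone. Each list gives 1 value per peak and genotype, with no replicates, so peaks were not tested between genotypes. Enrichment, the authors' ratio for each peak, had a median of 24.2 over 5586 WT peaks and 13.1 over 12290 KO peaks. The peaks of the 8 genes lay at or below these medians, the Fetub peak of KO (percentile 49.9) being the highest placed. The positions given here are mm10, and whether they fall in exons or untranslated regions was not analysed here.

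Angptl4, on the minus strand, had 3 peaks in each list, all within 300 bases of the start or the end of the gene. In WT a peak of 196 bases began 49 bases from the gene start (33781331 to 33781526) with an enrichment of 3.73 (deposited p of 2.53e-32), and a second, of 50 bases, had an enrichment of 7.11 (deposited p of 2.47e-17). In KO 1 peak of 245 bases (33781282 to 33781526) covered the first of these, with an enrichment of 9.54 (deposited p of 4.10e-75). At the other end WT had 147 bases (33775193 to 33775339) with an enrichment of 10.5 (deposited p of 1.08e-97). The KO peak there was longer, at 392 bases (33775046 to 33775437), with an enrichment of 7.84 (deposited p of 1.32e-65). A further KO peak of 50 bases lay 49 bases from the gene end with an enrichment of 4.74 (deposited p of 7.78e-30). Angptl4 thus had listed m6A regions at both ends of the gene in both genotypes.

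Fetub had 4 peaks in WT and 1 in KO. The KO peak had 2 blocks of 347 bases in all (22920261 to 22929186), with an enrichment of 13.1 (deposited p of 2.85e-31), and began 39 bases after the second RefSeq start of Fetub at 22920222. All bases of 2 WT peaks lay within it, 50 bases from 22920360 with an enrichment of 12.6 (deposited p of 1.52e-78) and 99 bases from 22920459 with an enrichment of 7.77 (deposited p of 2.09e-59). The other two WT peaks lay 347 and 99 bases from the gene end, with enrichments of 3.24 (deposited p of 3.29e-17) and 2.52 (deposited p of 1.61e-10), and no KO peak was listed there. KO input held 10.6-fold less Fetub mRNA in the authors' deposited table, and the part of that difference in which peaks were listed was not tested.

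Ahsg had 3 peaks in each list. At the gene start the WT peak had 99 bases (22892064 to 22892162) with an enrichment of 3.10, and the KO peak that covers it had 294 bases (22892015 to 22892308) with an enrichment of 9.08, both listed with a p of 0. At the gene end a WT peak of 343 bases (22898914 to 22899256, enrichment 2.04, deposited p of 7.33e-184) and a KO peak of 343 bases (22899060 to 22899402, enrichment 3.53, listed with a p of 0) shared 57.4% of their bases. A KO peak of 50 bases before it (22898865 to 22898914) had an enrichment of 1.24 (deposited p of 4.24e-07). The WT list also holds a peak of 2 blocks (22892308 to 22894354) with an enrichment of 0.711 and a p of 1.0, that is, less IP than input signal, and 12 of the 5586 WT peaks had an enrichment under 1.

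Klb had 1 WT peak of 50 bases (65379272 to 65379321), 30861 bases from the gene start and 7636 from its end, with an enrichment of 6.42 (deposited p of 1.56e-04). Gdf15 had 1 KO peak of 50 bases (70631537 to 70631586), 884 bases from the gene start, with an enrichment of 2.51 (deposited p of 6.61e-06), at percentile 2.85 of the KO list. Lect2 had 1 KO peak of 2 blocks with 244 bases in all (56546824 to 56548489), 70 bases from the gene start, with an enrichment of 5.07 (deposited p of 3.93e-09). The Gdf15 peak was listed in the genotype with more Gdf15 mRNA, and the Klb peak in the genotype with more Klb mRNA at the authors' scaling, while the Lect2 peak was listed in the genotype with less.

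Across genotypes 9 pairs of peaks of the same gene touched. Of these, 3 shared a single base, where the WT or KO peak ends and the other begins, 6 shared more, and 2 shared at least 50% of the bases of both, at the start of Angptl4 and at the end of Ahsg. Within 500 bases of the gene start lay 4 of the 11 WT and 3 of the 9 KO peaks, and within 500 bases of the gene end 4 and 3. Over the whole lists 28.3% of WT and 28.6% of KO peaks lay that near the start and 14.1% and 11.6% that near the end. The window was chosen after the positions were seen. The 2 lists differ in size, and the IP depth behind each value is unknown, so enrichments of WT and KO peaks are given side by side and not as changes.

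**Figure D5:**
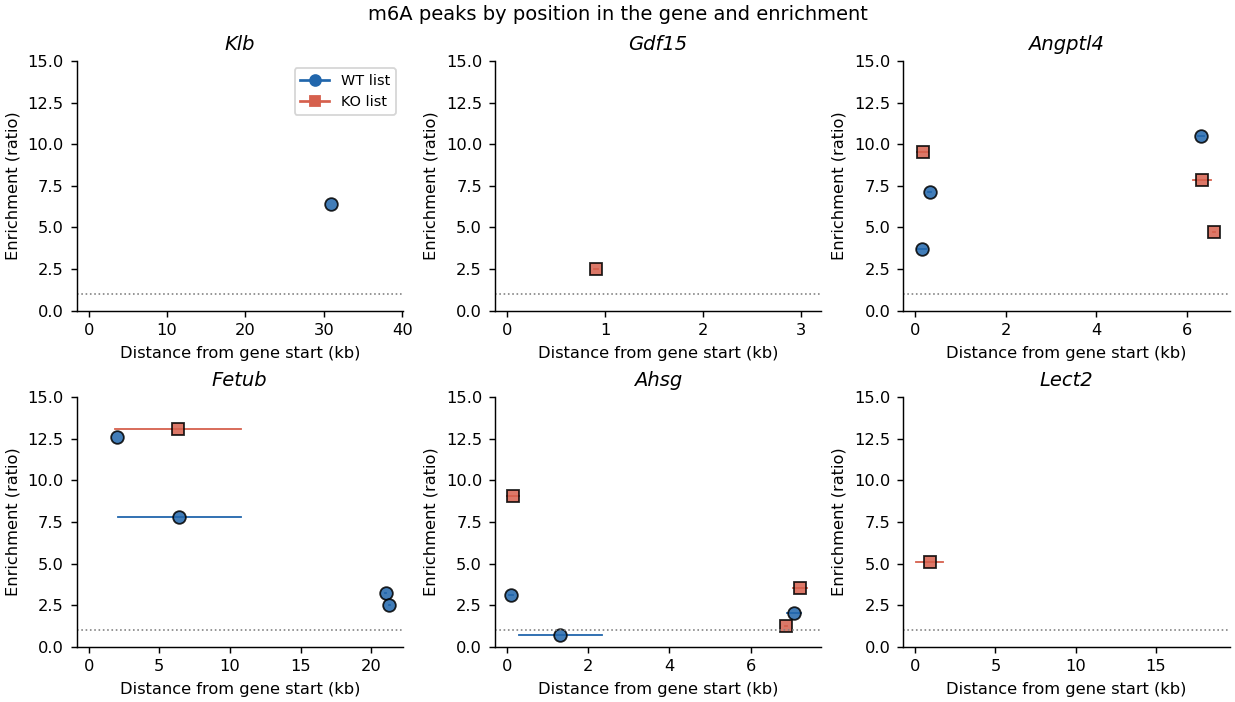
m6A peaks of the 6 genes that have any, by distance from the gene start (kb) and by the authors' enrichment ratio, blue circles for the WT list and red squares for the KO list. Horizontal lines show each peak's span, gaps between blocks included, and the dotted line marks a ratio of 1. Angptl4 and Ahsg have peaks near both ends in both lists, Fetub has peaks near its end in the WT list alone, and 1 WT peak of Ahsg lies under the dotted line.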

How the data were processed

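The series measured polyadenylated liver RNA of WT and KO mice given tunicamycin, before and after m6A precipitation, with 2 libraries in each of 4 groups. Per the labels' protocols, RNA was fragmented by sonication and libraries were made with a stranded kit. Per the submitters' processing notes, HISAT2 2.1.0 and DESeq2 1.18.1 were used with mm10. The sources used here do not give the read counter, annotation or peak caller.

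A comparison of the input libraries and, for each genotype, a list of peaks were deposited. The deposited mean of a gene is a signal, its counts over size factors averaged across 4 libraries. Change and SE are log2 values, as the deposited header names them. The deposited Wald statistic is a score. The p-value of the authors was adjusted by them for 14257 of 16133 genes. For each peak the authors give an enrichment, read here as a ratio of IP over input, and a number from 0 to 1, read here as a p-value whose adjustment is not stated.

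Reads of each library were recovered by searching whole numbers whose weighted sum equals the mean as deposited, guided by the fold change above a mean of 100. Up to that mean the fold change was used only to choose where more than 1 set of whole numbers gave the mean. On 1337 recovered genes with a mean between 50 and 100, refitted log2 changes differed from the deposited ones by at most 0.00486. For genes chosen by the fold change this closeness was set in advance, so the check is only partly independent. As a further test limma 3.58.1 (trend, R 4.3.3) took log2(normalized count + 1) of 14169 genes, with the Benjamini-Hochberg method, and was tested on simulated data. Alternatives were equal total counts, pseudocounts of 0.5 and 5, a mean count of at least 10, stricter thresholds and leaving out each library. Promoters are from RefSeq (GRCm38.p6).

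Named genes were the 8 genes, up to 4 called genes with the smallest p per list, the genome neighbours Hrg and Kng1, Mettl14 and the 3 nearest genes by library values. Apoa1, Apob, Tat, Serpina1a, Cyp2e1, Krt7, Cldn4, Dcn, Lrat, Des, Lum, Cd68, Clec4f and Vsig4 were named after their values were seen. So were Igfbp1, Spry2, Spred2, Nr0b2, Abcb11 and Lpl, and others where the text says so. The members and the 8 gene lists were chosen with earlier results of these data known. Some genes that this rule names are not reported here.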

Additional observations from a re-analysis of the deposited data

How the results depend on the processing

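Fgf21, Gdf15 and Fetub kept their direction and their call under the limma fits on all 4 libraries, whatever the scaling, pseudocount or filter. At equal total counts the log2 change was 0.044 for Klb, 0.051 for Fgfr4, -0.30 for Angptl4 and -0.054 for Lect2, none of them called, and Ahsg, moved by the shift between scalings (an alternative chosen after seeing the data), had 0.054. The number of the 8 genes called, 7 in the authors' deposited table, was 6 in limma at the authors' size factors and 3 in limma at equal total counts, both of the 7 with library values, and 4 in the deposited table with a change of at least 2-fold. Called genes of the lists in limma at equal total counts were 15 for FGF receptors and signal chain (11 at the authors' size factors), 9 for other hormones (12) and 3 for the cystatin relatives (4). With at least 2-fold they were 3 for the receptors and 7 for the regulators, and with an adjusted p under 0.01 8 for the regulators. Peak pairs numbered 2 instead of 9 when 50% of the bases of both had to be shared, and 10 of 11 WT and 9 of 9 KO peaks had a p under 0.01. With 1 library left out, the log2 change ranged from -3.54 to -2.19 for Fgf21, -1.01 to -0.54 for Klb, -1.36 to -0.17 for Fgfr4, 0.80 to 1.67 for Gdf15, -1.37 to -0.88 for Angptl4, -3.57 to -3.27 for Fetub and -1.25 to -0.49 for Lect2. The number of these genes called ranged from 0 to 6. In the lists it ranged from 0 to 13 (receptors, feedback genes and other hormones), 0 to 7 (bile acid), 0 to 14 (regulators), 0 to 19 (PPARA targets), 0 to 8 (lipase system) and 0 to 4 (cystatin relatives). Each 0 came without KO A or KO B, where the lone KO library is assumed to vary like the WT pair. No paired analysis was possible because the values per library carry no replicate number. Fgf21 rests on 11 to 105 reads per library, which limits its precision.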

Other observations

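The 2 WT libraries differed from each other in several stress genes, which were picked here after their values were seen. The ratio of WT B over WT A was 2.57 for Fgf21, 1.83 for Gdf15, 2.28 for Atf4, 2.65 for Ddit3 and 8.71 for Atf3, and 4.37 for Inhbe, which encodes the secreted activin E subunit. Of 9110 genes with reads in every library and a mean count of 100 or more, predicted genes included, 0.538% had a higher ratio than Fgf21, 1.84% than Gdf15, 0.735% than Atf4, 0.494% than Ddit3, 0.011% than Atf3 and 0.0768% than Inhbe. Fgf21 itself has a mean count of 54.8, under that minimum. Ppara and Creb3l3 lay on the other side, with ratios of 0.739 and 0.742, as did Angptl4 with 0.712. In the KO pair, library B over A, the ratios were 0.690 for Fgf21, 1.15 for Gdf15, 1.01 for Atf4, 0.912 for Ddit3, 1.87 for Atf3 and 0.654 for Inhbe. Fgf21 and Inhbe thus had low values in both KO libraries, although Ddit3 and Atf3 in both KO libraries exceeded both WT libraries. Inhbe stood at 151 and 98.6 normalized counts in KO and at 285 and 1244 in WT, a log2 change of -2.62 in the authors' deposited table (DESeq2 adjusted p = 0.0231). At equal total counts the limma value of Inhbe was -1.46 and did not pass (adjusted p = 0.0652).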
